A study of Rattus with 9 samples.

Results

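Bile ducts of rat liver grafts whose arterial inflow had been raised were compared between day 7 and day 1 after transplantation. The cells came from 6 of the 20 scRNA-seq libraries of the series, 3 libraries of the sample treat7D and 3 libraries of the sample treat1D, and they numbered 52163 of the 150379 cells kept in all libraries (24320 at day 1 and 27843 at day 7). A barcode was kept as a cell when it held over 400 and below 6000 genes, with a mitochondrial share below 25% and a hemoglobin share below 3% of its UMIs, where a UMI is 1 counted mRNA molecule. The UMIs of all kept cells were added up per library, over all cells and within each cell class, and the library was the replicate. Rats of both days had received a liver transplant, and their splenic and gastroduodenal arteries had been ligated so that more blood reached the hepatic artery. All transplanted groups, these included, carried ischemic injury of the graft, and the labels give no strain, age, sex or genotype. Each day was 1 GEO sample, and nothing states whether its 3 libraries came from separate rats, so the p-values measure the spread between libraries, which may be technical. Sham rats (3 libraries) and grafts of the same arm at day 3 (2 libraries) are given below as levels with no test, and transplants without ligation at days 1 and 7 (3 libraries each) entered a test of the difference between arms.

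The extrahepatic bile duct is lined by biliary epithelial cells (BEC), which modify bile and seal the wall against it, and its blood comes from arteries, among them branches of the hepatic artery. In a transplanted organ, interferon-γ from T and NK cells induces the chemokines Cxcl9, Cxcl10 and Cxcl11, which draw further T cells through the receptor Cxcr3, and it switches on MHC class I and class II presentation, by which graft cells display peptides to T cells. Injury also recruits neutrophils and monocytes early, and fibroblasts answer it by depositing collagen and by remodelling the matrix.

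The libraries held 7131 to 9838 cells at day 1 and 7204 to 12313 at day 7, with 58739916 to 84919892 and 38304154 to 73988450 UMIs in cells. Median depth per cell was higher at day 1 (4874.5 to 7219 UMIs and 1548.5 to 2022 genes) than at day 7 (3374.5 to 3751 UMIs and 1239 to 1260.5 genes). The median mitochondrial share was 1.95% to 2.43% at day 1 and 2.57% to 4.13% at day 7. Libraries shared 10 to 30 cell barcodes per pair, at most 0.351% of the smaller library, and no pair agreed within counting error.

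NK&T-like cells held a larger share of the duct cells in every library of day 7 than in any of day 1, and fibroblast-, neutrophil-, mesothelial- and lymphatic EC-like cells a smaller one. Clusters were named by marker genes and are called "-like" for that reason. NK&T-like cells made up 5.32%, 4.11% and 4.93% of the cells of the 3 libraries at day 1 and 35.8%, 8.90% and 23.5% at day 7. Fibroblast-like cells made up 12.7%, 28.6% and 29.7% at day 1 and 3.57%, 5.13% and 2.57% at day 7. Neither class overlapped between days. Neutrophil-like cells, the first leukocytes to enter injured tissue, went from 13.4%, 16% and 6.98% to 1.82%, 6.79% and 1.92%, a narrow gap between library 3 of day 1 and library 2 of day 7. Lymphatic EC-like cells, which line the vessels that drain the duct wall, went from 1.46%, 1.16% and 1.10% to 0.219%, 0.252% and 0.333%. Mesothelial-like cells, the covering layer of the duct, went from 2.75%, 1.78% and 0.874% to 0.0325%, 0.0961% and 0.278%. These classes, the Schwann-like cells (0.367% to 0.940% at day 1, 0.111% to 0.122% at day 7) and the plasma-like cells (0% to 0.0680% at day 1, 0.0721% to 3.43% at day 7) were those whose libraries did not overlap between days. Each of them had p = 0.1 in the two-sided exact permutation test of the mean share, which is the smallest value that 3 libraries against 3 allow, so no share could pass 0.05. With libraries of the same number paired, a test chosen after seeing the data, each had p = 0.25 (exact permutation test), the smallest that 3 pairs allow. With cells of high doublet score left out, the neutrophil-like shares overlapped (7.31% in library 3 of day 1 and 7.32% in library 2 of day 7, exact permutation p = 0.2), as did the Schwann-like shares (0.102% in library 1 of day 1 and 0.131% in library 1 of day 7, exact permutation p = 0.3). With a minimum of 1000 UMIs per cell the plasma-like shares overlapped (0.0709% in library 1 of day 1 and 0.0654% in library 2 of day 7, exact permutation p = 0.2). At a clustering resolution of 2 no cluster was named mesothelial-like.

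**Figure D1:**
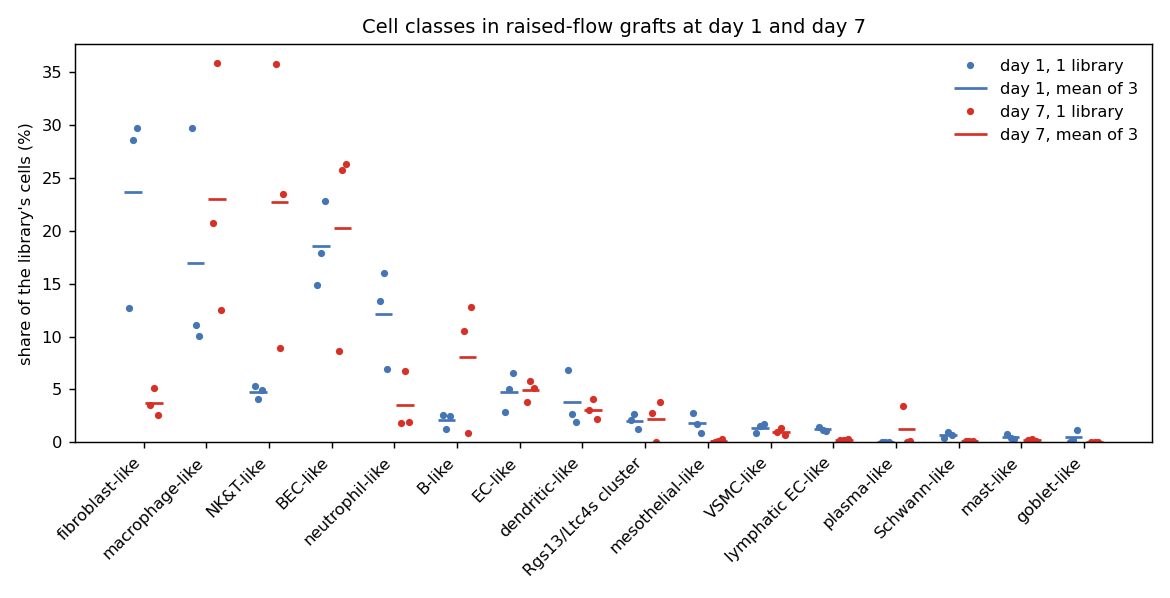
Share of each library's cells (percent, y axis) in each marker-named class (x axis) at day 1 and day 7 in raised-flow grafts; each point is 1 library and each bar the mean of 3. NK&T-like shares were 4.11% to 5.32% at day 1 and 8.90% to 35.8% at day 7, and fibroblast-like shares were 12.7% to 29.7% and 2.57% to 5.13%.

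Other classes overlapped between the days. BEC-like cells were 14.9%, 17.9% and 22.8% of the libraries at day 1 and 8.67%, 25.8% and 26.3% at day 7 (exact permutation p = 0.8). At a clustering resolution of 2, the share of library 3 of day 7 was 11.8%, with 22.5% of its cells unnamed against 7.44% before, and the difference of the means turned from 1.77 to -3.14 points (exact permutation p = 0.6). EC-like cells, the blood vascular endothelium, were 2.86%, 5.03% and 6.53% at day 1 and 3.80%, 5.79% and 5.18% at day 7 (exact permutation p = 0.9). Macrophage-like cells reached 29.7% in library 1 of day 1 and 35.9% in library 2 of day 7, and the other 4 libraries lay between 10.1% and 20.8% (exact permutation p = 0.5). B-like cells were 2.56%, 1.23% and 2.53% at day 1 and 10.5%, 0.865% and 12.8% at day 7, where library 2 stayed low (exact permutation p = 0.4). Mast-like cells were 0.789%, 0.393% and 0.335% at day 1 and 0.195%, 0.348% and 0.167% at day 7, and goblet-like cells 0.0408%, 0.224% and 1.14% at day 1 and 0.0162%, 0.0120% and 0.0555% at day 7. Both overlapped (exact permutation p = 0.2), and both were lower at day 7 in 3 of 3 pairs of the same library number (paired exact permutation p = 0.25). Shares of cells in dissociated tissue also depend on which cells survive digestion and dead-cell removal, and the part of that in these differences was not tested.

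Over all cells together, 2625 of 15054 genes tested differed between day 7 and day 1 at an adjusted p under 0.05 (17.4%), 1262 higher (8.38%) and 1363 lower (9.05%) at day 7. For 36.9% of the genes the 3 libraries of day 7 lay wholly above or wholly below those of day 1. Levels are given as UMIs per 1000000 UMIs of the library's cells or, within a class, of that class (CPM), and log2 fold changes are day 7 over day 1 with the standard error of edgeR's quasi-likelihood test. In such sums, more cells of a type and more RNA of a gene per cell cannot be told apart, which is why the same genes were tested within classes further on. Without library 2 of day 1, library 3 of day 1 or library 3 of day 7 the number called was 790, 861 and 837.

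Cxcl9, a chemokine that attracts T cells, had 9.75, 0.664 and 1.26 CPM at day 1 and 450.2, 536 and 579 CPM at day 7. It rose by 6.91 ± 1.08 on the log2 scale (adjusted p = 0.00960). Ubd, a ubiquitin-like modifier induced by interferon-γ and TNF, had 14.7, 3.54 and 1.82 CPM at day 1 and 482, 345 and 625 CPM at day 7. It rose by 6.03 ± 0.83 on the log2 scale (adjusted p = 0.00762). The sham libraries had 3.27, 16.6 and 11.9 CPM of Cxcl9, and the day 3 libraries 697 and 986 CPM. For Ubd these values were 9.79, 9.76 and 5.38 CPM in sham and 752 and 471 CPM at day 3. Of the 26 interferon-stimulated genes tested, 17 were higher at day 7 and none lower, with a median log2 fold change of 1.96 beside 0.01 over all genes tested. Cxcl10 had 47.6, 21.5 and 16.1 CPM at day 1 and 310.4, 477 and 672 CPM at day 7. It rose by 3.93 ± 0.46 on the log2 scale (adjusted p = 0.00557). Cxcl11, the third ligand of Cxcr3, had 9.63, 0.136 and 0.685 CPM at day 1 and 225, 265 and 219.7 CPM at day 7 (log2 fold change 5.95 ± 1.37, adjusted p = 0.0265), and it lost the call without library 3 of day 1, library 1 of day 7 or library 3 of day 7 (highest adjusted p 0.0696).

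MHC class II genes, which present antigen to CD4 T cells, were higher for 8 of 10 members tested and lower for none (median 3.47). RT1-Bb, a β chain of the rat class II molecule RT1-B, had 174, 31.3 and 64.96 CPM at day 1 and 1895, 1949 and 833 CPM at day 7. It rose by 4.03 ± 0.74 on the log2 scale (adjusted p = 0.0143). Its level at day 1 lay below sham (342, 196 and 205 CPM), and the day 3 libraries had 418 and 206 CPM. Ciita, the transcription factor that switches the class II genes on, had 1.81, 0.664 and 0.435 CPM at day 1 and 12.5, 9.51 and 17.8 CPM at day 7. It rose by 3.61 ± 0.54 on the log2 scale (adjusted p = 0.00856). MHC class I presentation rose for 11 of 14 members and fell for none (median 2.23). Tap1, a subunit of the pump that carries peptides to class I molecules, had 35.4, 29.1 and 25.4 CPM at day 1 and 178, 172 and 257 CPM at day 7. It rose by 2.61 ± 0.21 on the log2 scale (adjusted p = 0.00473). RT1-A1, a classical class I heavy chain, had 447, 284 and 307 CPM at day 1 and 2658, 2062 and 2697 CPM at day 7. It rose by 2.71 ± 0.30 on the log2 scale (adjusted p = 0.00482). Reads of RT1 genes can be split between near-identical copies, so the values of single RT1 genes are uncertain. Without library 2 of day 1, 11 interferon-stimulated, 6 class II and 6 class I genes kept an adjusted p under 0.05.

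Of 25 genes of T cells and cytotoxic effectors, 23 were higher at day 7 and none lower, with a median log2 fold change of 3.43. Gzmk, a granzyme of memory-like killer cells, had 10.2, 5.601 and 8.76 CPM at day 1 and 139, 205 and 396 CPM at day 7. It rose by 4.70 ± 0.41 on the log2 scale (adjusted p = 0.00473). Prf1, perforin, which opens target cell membranes, had 6.65, 2.04 and 4.15 CPM at day 1 and 85.8, 71.5 and 255 CPM at day 7. It rose by 4.76 ± 0.60 on the log2 scale (adjusted p = 0.00591). Ccl5, a chemokine released by T and NK cells, had 76.9, 53.4 and 118 CPM at day 1 and 2845, 964 and 2958 CPM at day 7. It rose by 4.61 ± 0.56 on the log2 scale (adjusted p = 0.00577). Its day 3 level was still 115 and 132 CPM, while Gzma, another granzyme, stood at 267 and 95.3 CPM at day 3 between 21.4, 3.97 and 17.1 CPM at day 1 and 383, 366 and 779.9 CPM at day 7. Checkpoint and costimulation genes rose for 11 of 15 members and fell for none (median 2.15). Lag3, an inhibitory receptor of activated T cells, had 7.61, 4.26 and 3.83 CPM at day 1 and 395, 60.7 and 225 CPM at day 7. It rose by 5.35 ± 0.74 on the log2 scale (adjusted p = 0.00782). Library 2 of day 7 was the lowest of its day for Lag3 and for Cd3d, a chain of the T cell receptor complex (482, 95.3 and 218 CPM at day 7), as it was for the share of NK&T-like cells. Without library 2 of day 1, 3 of the 15 checkpoint genes kept the call. Mcpt1, a chymase of mast cells, went from 1.78, 1.21 and 6.64 CPM to 79.9, 126 and 45.6 CPM (log2 fold change 4.58 ± 0.79, adjusted p = 0.0124), while mast-like cells were under 1% of every library. Granzymes of rat form a family of near-identical copies, and the split of reads among Gzmbl2 and its relatives is uncertain.

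**Figure D2:**
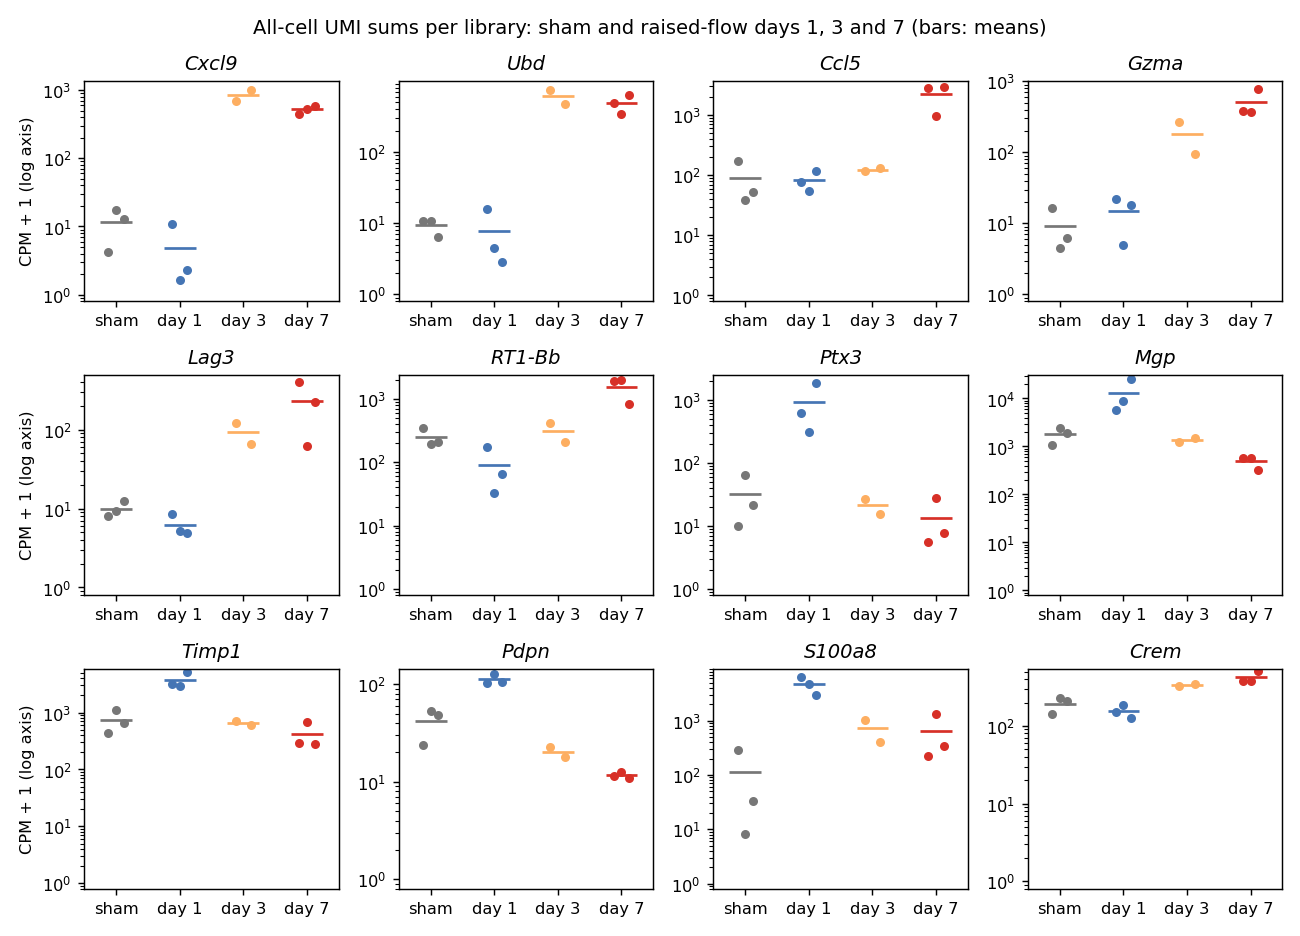
CPM + 1 per library (y axis, log scale) over all cells for 12 genes in sham rats, and in raised-flow grafts at days 1, 3 and 7 (x axis); points are libraries and bars are means. Ccl5 was 115 and 132 CPM at day 3 and 2845, 964 and 2958 CPM at day 7, Cxcl9 was already 697 and 986 CPM at day 3, and Ptx3 and Mgp peaked at day 1.

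Of 12 monocyte and tissue chemokines and receptors tested, 3 were higher and 3 lower. Ccl4, a chemokine that attracts monocytes and T cells, had 58.5, 28.4 and 39.2 CPM at day 1 and 499, 404 and 315 CPM at day 7. It rose by 3.17 ± 0.40 on the log2 scale (adjusted p = 0.00577). Ccl2, the main monocyte attractant, went from 3420, 1706 and 1668 CPM to 469.6, 770.2 and 316 CPM. It fell by 2.21 ± 0.47 on the log2 scale (adjusted p = 0.0217). Ccl7, another monocyte attractant, went from 1027, 519 and 376 CPM to 119.8, 159 and 73.96 CPM. It fell by 2.53 ± 0.49 on the log2 scale (adjusted p = 0.0164). None of 8 neutrophil-attracting chemokines and related factors passed the test; Cxcl1 had 1369, 1093 and 1404 CPM at day 1 and 326, 1430 and 981 CPM at day 7 (log2 fold change -0.66 ± 0.47, adjusted p = 0.346). Cxcl13, which attracts B cells, had 9.53, 1.46 and 14.1 CPM at day 1 and 84.04, 102 and 123 CPM at day 7. It rose by 3.43 ± 0.72 on the log2 scale (adjusted p = 0.0204). Of 19 neutrophil granule and receptor genes, 5 were lower and 1 higher, the latter being Ltf at 0.852 CPM or less in every library. S100a8, an alarmin that fills neutrophils and young monocytes, had 6477, 4735 and 2915 CPM at day 1 and 225, 1325 and 345 CPM at day 7 (log2 fold change -2.99 ± 0.70, adjusted p = 0.0282), and sham had 291, 7.22 and 32.6 CPM. It lost the call in 5 of the 6 fits without 1 library and when neutrophil-like cells were left out.

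The naming filters, given below, included at least 50 CPM in the higher group. Among the genes that passed them, Ptx3, a soluble pattern receptor made by injured stroma, showed the largest fall. It had 610, 314 and 1870 CPM at day 1 and 4.54, 26.4 and 6.71 CPM at day 7, with 9.05, 63.6 and 20.9 CPM in sham. Ptx3 changed by -6.37 ± 1.05, adjusted p = 0.0109 on the log2 scale. Mgp, matrix Gla protein, an inhibitor of calcification, had 5838, 8793 and 25048 CPM at day 1 and 566, 575 and 328 CPM at day 7 (log2 fold change -4.87 ± 0.70, adjusted p = 0.00806), and sham, at 1063, 2383 and 1949 CPM, lay between the days. Rbp4, the carrier of retinol, had 124, 149 and 53.97 CPM at day 1 and 4.68, 6.61 and 3.63 CPM at day 7. It fell by 4.52 ± 0.45 on the log2 scale (adjusted p = 0.00473). Day 1 library 3 was the highest by far for Ptx3 and Mgp, and both kept the call without it. In the same library Mt2A, a metallothionein, had 4323 CPM against 376 and 589 CPM in the other libraries of day 1, and Cyp7b1, an oxysterol hydroxylase, 227 CPM against 27.9 and 33.5 CPM. That library held 2499 of the 2567 cells of the fibroblast-like cluster 5; Mt2A kept the call in 1 of 6 and Cyp7b1 in 3 of 6 fits without 1 library. Pdpn, podoplanin, a membrane glycoprotein of lymphatic vessels, stroma and inflammatory macrophages, had 101, 127 and 105 CPM at day 1 and 10.6, 11.7 and 10.03 CPM at day 7 (log2 fold change -3.47 ± 0.22, adjusted p = 0.00236), and the libraries of each day lay close together.

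Of 24 collagens and matrix genes 9 were lower and none higher (median -1.35), and of 26 genes of collagen cross-linking, elastic fibers and matrix proteases 11 were lower and 1 higher (median -1.24). Timp1, an inhibitor of matrix proteases, had 3206, 2958 and 5108 CPM at day 1 and 293, 669.7 and 285 CPM at day 7. It fell by 3.29 ± 0.48 on the log2 scale (adjusted p = 0.00838). Serpinh1, the collagen chaperone, had 886, 1620 and 661 CPM at day 1 and 160.5, 251 and 184 CPM at day 7. It fell by 2.50 ± 0.36 on the log2 scale (adjusted p = 0.00816). Dcn, a collagen-binding proteoglycan, had 1196, 1883 and 3742 CPM at day 1 and 331, 372 and 345 CPM at day 7. It fell by 2.85 ± 0.46 on the log2 scale (adjusted p = 0.0102). Sham had 1208, 2607 and 3131 CPM of Dcn, above the 427 and 308 CPM of day 3 and the level of day 7. Timp1 had 435, 1106 and 652 CPM in sham and 722 and 600.2 CPM at day 3, all below day 1. TGF-beta pathway genes were lower for 8 of 21 members and higher for 2. Ltbp4, which holds latent TGF-beta in the matrix, had 49, 199.9 and 153 CPM at day 1 and 17.4, 20.2 and 25.9 CPM at day 7. It fell by 2.79 ± 0.46 on the log2 scale (adjusted p = 0.0109). Fibroblast-like cells went from 12.7% to 29.7% of cells to 2.57% to 5.13% over the same time, and the part of that shift in the falls was not tested. 

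Crem, a cAMP-responsive transcription factor that the study follows in biliary epithelium, had 149.5, 185 and 126 CPM at day 1 and 382, 378 and 508 CPM at day 7 (log2 fold change 1.33 ± 0.20, adjusted p = 0.00867), higher in 3 of 3 libraries of day 7 and called in all 6 fits without 1 library. Sham had 140.2, 227 and 207 CPM and day 3 326 and 343 CPM. Vim, an intermediate filament of mesenchymal cells, had 2527, 1805 and 1220 CPM at day 1 and 1486, 1852 and 887 CPM at day 7 (log2 fold change -0.47 ± 0.41, adjusted p = 0.441), and its libraries overlapped. The epithelial cadherin Cdh1 (0.43 ± 0.22, adjusted p = 0.195) and the biliary keratins Krt7 (0.10 ± 0.33, adjusted p = 0.861) and Krt19 (0.29 ± 0.21, adjusted p = 0.357) did not pass the test, and the mesenchymal cadherin Cdh2 went from 6.28, 11.3 and 27.1 CPM to 2.96, 4.28 and 3.39 CPM (log2 fold change -2.22 ± 0.54, adjusted p = 0.0307), a call kept in 1 of 6 fits without 1 library. Of 36 biliary epithelial genes 2 were higher and 1 lower. Gpbar1, a membrane receptor for bile acids, had 9.02, 40.7 and 15.2 CPM at day 1 and 1.49, 1.53 and 0.522 CPM at day 7. It fell by 4.20 ± 0.68 on the log2 scale (adjusted p = 0.0103). Within BEC-like cells, where 1.96% of all genes were higher and 0.414% lower, 1 of 34 biliary epithelial genes was higher and 0 lower. Cftr, the chloride channel of bile secretion, went from 6.39, 7.42 and 8.04 CPM to 8.85, 20.1 and 35.2 CPM (log2 fold change 1.35 ± 0.38, adjusted p = 0.0451), a call kept in 1 of 6 fits without 1 library. No tuft cell gene of 12 passed the test. Selenoproteins and selenium handling genes, which the series title refers to, were lower for 3 of 26 and higher for none, near the 9.05% of all genes that were lower. Selenom, an oxidoreductase of the endoplasmic reticulum, had 390.1, 683 and 403 CPM at day 1 and 153, 162 and 97.5 CPM at day 7. It fell by 1.91 ± 0.35 on the log2 scale (adjusted p = 0.0142).

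Other lists are set beside the 8.38% of all genes higher and the 9.05% lower. Endothelial shear-responsive and adhesion genes were higher for 3 of 24 and lower for 2, and within EC-like cells, where 3.28% of all genes were higher and 1.48% lower, 1 of 22 was higher and 1 lower. B cell, plasma cell and lymphoid chemokine genes were higher for 4 of 13, immediate early genes for 2 of 17, with none lower in either. Unfolded protein response genes were higher for 1 of 14 and lower for 3, and nuclear-encoded respiratory chain genes were lower for 2 of 17. HIF targets were higher for 2 of 19 and lower for 4. Adm, a vasodilator peptide, had 108, 33.7 and 174 CPM at day 1 and 13.4, 17.2 and 23.6 CPM at day 7. It fell by 2.74 ± 0.56 on the log2 scale (adjusted p = 0.0194). Pfkfb3, an activator of glycolysis, had 22.6, 15.2 and 10.6 CPM at day 1 and 32.6, 39.7 and 47.5 CPM at day 7 (log2 fold change 1.17 ± 0.27, adjusted p = 0.0270), a call kept in 2 of 6 fits without 1 library. None of 11 glycolysis enzymes, 23 cell cycle genes or 14 smooth muscle genes passed the test. Cytokines of the IL-1, IL-6 and TNF families were higher for 2 of 19 and lower for 4. Osmr, the oncostatin M receptor, went from 12.3, 19.9 and 30.3 CPM to 3.501, 4.401 and 4.23 CPM. It fell by 2.51 ± 0.36 on the log2 scale (adjusted p = 0.00806). Tnfaip3, a brake on NF-κB, went from 4.96, 3.39 and 5.24 CPM to 15.4, 17.98 and 17.8 CPM. It rose by 1.77 ± 0.26 on the log2 scale (adjusted p = 0.00838). NRF2 antioxidant genes were lower for 3 of 13, with Me1, a source of NADPH, at 28.4, 31.9 and 26.4 CPM at day 1 and 9.34, 10.9 and 11.98 CPM at day 7. Me1 fell by 1.55 ± 0.16 on the log2 scale (adjusted p = 0.00473). Resident macrophage genes were lower for 3 of 17, among them Gas6, a ligand for clearance of dying cells. Gas6 fell by 2.05 ± 0.23 on the log2 scale (adjusted p = 0.00512). Complement genes were higher for 4 of 19 and lower for 1, and the rises were led by C1qa, a chain of the C1q trigger of the pathway. C1qa rose by 2.44 ± 0.48 on the log2 scale (adjusted p = 0.0175). Adm and C1qa, like Ccl2, kept the call in 4 of the 6 fits without 1 library.

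**Figure D3:**
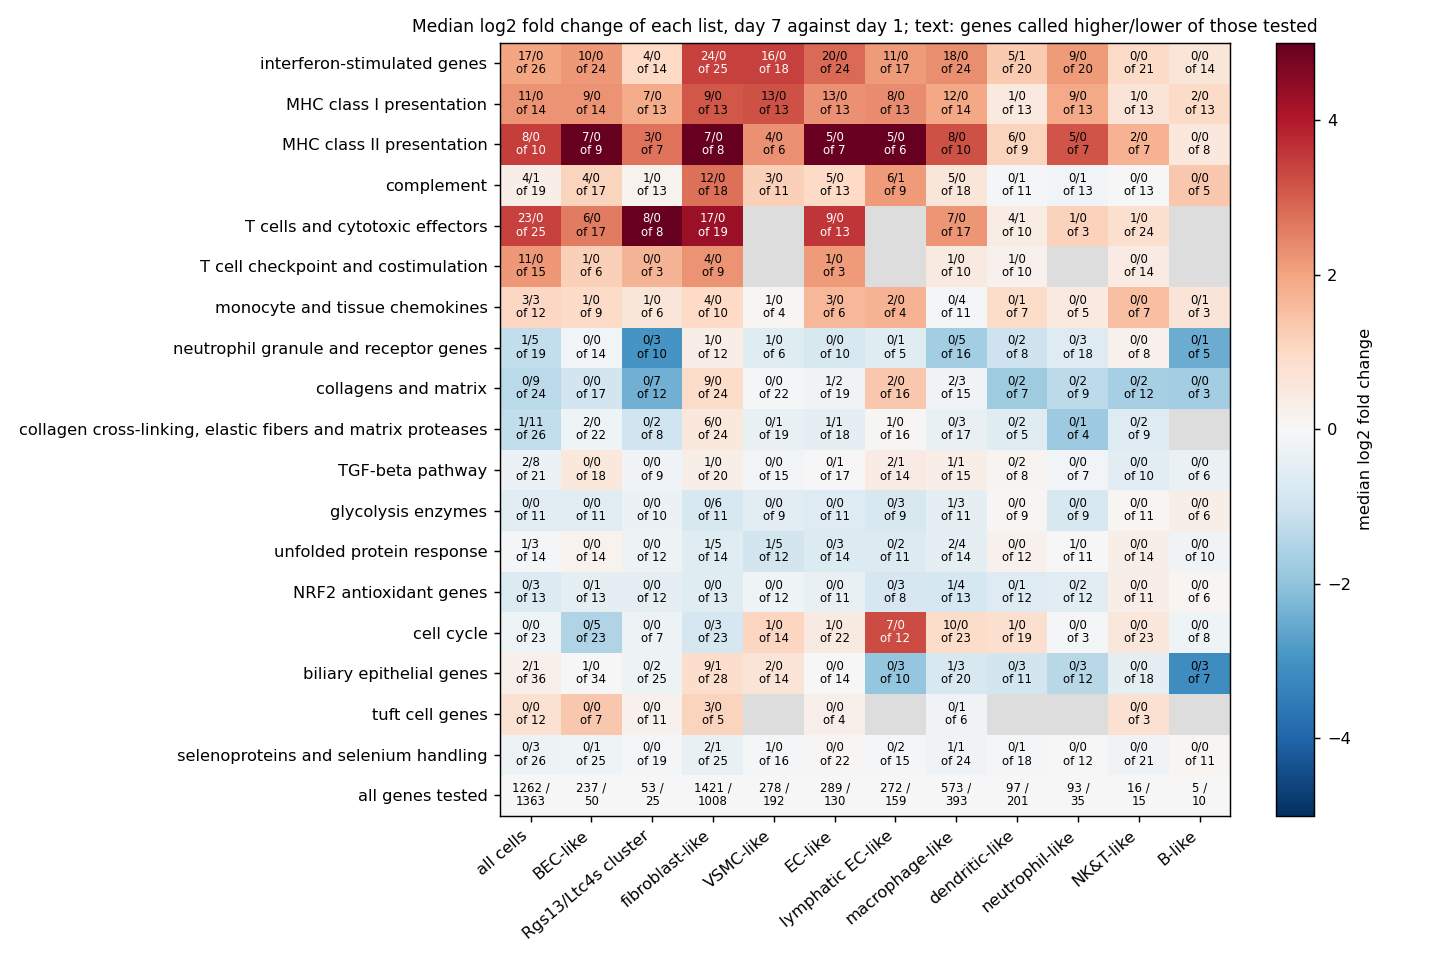
Median log2 fold change of day 7 against day 1 (color) for 18 gene lists and all genes tested (rows), over all cells and within 11 classes (columns); the text in a cell gives genes called higher and lower, of those tested, and grey marks fewer than 3 tested. Interferon, class I and class II lists were red in stromal, epithelial and myeloid classes, while collagens were blue over all cells and pale red in fibroblast-like cells.

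Within BEC-like cells 1.96% of the 12088 genes tested were higher and 0.414% lower, 287 in all, while DESeq2 gave 1737 calls. The biliary identity genes Krt7 and Krt19 did not pass the test. Cd74, the invariant chain that guides class II molecules, had 79.7, 41.8 and 20.6 CPM at day 1 and 4566, 2536 and 4654 CPM at day 7. It rose by 6.24 ± 0.55 on the log2 scale (adjusted p = 0.00249). Class II genes rose for 7 of 9 members (median 5.54), class I genes for 9 of 14 (median 2.25) and interferon-stimulated genes for 10 of 24 (median 2.17), with none lower. Ubd had 11.9, 10.1 and 0.675 CPM at day 1 and 1121, 519 and 1112 CPM at day 7. It rose by 6.84 ± 0.90 on the log2 scale (adjusted p = 0.0113). Cxcl9 reached 202, 110.1 and 233 CPM from 1.43, 0.0874 and 0.289 CPM. It rose by 8.03 ± 0.69 on the log2 scale (adjusted p = 0.00249). Cell cycle genes were lower for 5 of 23 and higher for none (median -1.49), such as Bub1, a mitotic checkpoint kinase, at 26.1, 40.4 and 25.3 CPM at day 1 and 11.8, 11.4 and 5.21 CPM at day 7. Bub1 fell by 1.86 ± 0.34 on the log2 scale (adjusted p = 0.0371). Upk3bl1, a leading gene of the BEC-like cluster 18, went from 461, 410.3 and 259 CPM to 69.02, 154 and 52.4 CPM (log2 fold change -2.19 ± 0.41, adjusted p = 0.0371), a call kept in 2 of the 6 fits without 1 library. Crem had 22.7, 27.3 and 21.9 CPM at day 1 and 40.1, 79.6 and 60.8 CPM at day 7 (log2 fold change 1.14 ± 0.25, adjusted p = 0.0532). Vim had 194, 167 and 96.6 CPM at day 1 and 147, 290.2 and 53.5 CPM at day 7 (log2 fold change -0.04 ± 0.52, adjusted p = 0.967). Cd74 and Cxcl9 kept the call in 6 of the 6 fits without 1 library, Ubd in 5, losing it without library 2 of day 1, and Bub1 in 3. Tuft cell genes gave no call among 7 tested.

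The make-up of the BEC-like class differed between days. Cluster 10 held 41.5% and cluster 18 19.4% of the BEC-like cells of day 1, against 6.33% and 3.63% at day 7, and cluster 4 held 49.8% at day 7 and 4.77% at day 1. Cluster 2 was common to both, with 34.3% and 40.2%. These percentages pool the libraries of a day. Libraries 1, 2 and 3 of day 7 held 1068, 2152 and 1898 BEC-like cells, of which cluster 4 took 317, 1787 and 445. Libraries 1, 2 and 3 of day 1 held 1094, 1276 and 2241, of which cluster 10 took 106, 622 and 1187. Summed goblet markers within the class were 3822 to 8344 CPM at day 1 and 380 to 5392 CPM at day 7, and summed NK&T markers 6.38 to 17.7 and 43.6 to 117 CPM. Markers of cells that carry class II were higher without overlap, dendritic markers going from 14.4 to 16.7 CPM to 46.2 to 127 CPM and B markers from 2.80 to 3.73 CPM to 14.5 to 15.5 CPM, while macrophage markers overlapped (319 to 1226 and 533 to 2299 CPM). The part of these in the calls was not tested. Without cluster 4, 101 genes were called, and without cluster 18, 2097, alternatives chosen after seeing the data. The number called was 36 without library 2 of day 1, 38 without library 3 of day 1, 109 without library 3 of day 7 and 1291 without library 1 of day 7. Without library 2 of day 1, 1 of the 14 class I genes and 5 of the 9 class II genes kept the call, and without library 3 of day 1, 5 interferon-stimulated genes did.

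Fibroblast-like cells had the largest share of genes called among the classes tested: 11.9% of genes tested were higher and 8.46% lower. Interferon-stimulated genes rose for 24 of 25 members (median 3.41), class II for 7 of 8 (median 5.31), class I for 9 of 13 (median 3.10) and complement for 12 of 18 (median 2.76), with none lower in these lists. Cxcl9 had 4.86, 0.3002 and 1.39 CPM at day 1 and 1511, 1144 and 1957 CPM at day 7. It rose by 9.29 ± 0.99 on the log2 scale (adjusted p = 0.00165). Ubd had 0.393, 0.1001 and 0.232 CPM at day 1 and 852, 200.3 and 437 CPM at day 7. It rose by 10.83 ± 0.77 on the log2 scale (adjusted p = 4.38e-04). C3, the central complement component, had 7.21, 9.84 and 49.2 CPM at day 1 and 457, 686 and 758 CPM at day 7. It rose by 4.66 ± 0.78 on the log2 scale (adjusted p = 0.00664). RT1-Da, the α chain of RT1-D, had 23.99, 15.2 and 9.38 CPM at day 1 and 892, 553 and 843 CPM at day 7. It rose by 5.43 ± 0.40 on the log2 scale (adjusted p = 4.77e-04). In contrast to the sums over all cells, collagens and matrix genes were higher for 9 of 24 and lower for none (median 0.90), and cross-linking, elastic fiber and protease genes were higher for 6 of 24 (median 0.52). Fn1, fibronectin, had 545, 593 and 636 CPM at day 1 and 2409, 3733 and 3154 CPM at day 7. It rose by 2.28 ± 0.26 on the log2 scale (adjusted p = 0.00213). Cthrc1, a secreted protein of matrix-producing fibroblasts, had 207, 120.1 and 42.5 CPM at day 1 and 1815, 1219 and 569 CPM at day 7. It rose by 3.21 ± 0.63 on the log2 scale (adjusted p = 0.0112). Fbn1, the fibrillin of microfibrils, had 643, 551 and 222 CPM at day 1 and 1742, 2008 and 2608 CPM at day 7. It rose by 2.06 ± 0.36 on the log2 scale (adjusted p = 0.00792). Col1a1, the main fibrillar collagen, chosen after its values were seen, had 5162, 8641 and 5378 CPM at day 1 and 14313, 14999 and 13566 CPM at day 7. It rose by 1.07 ± 0.24 on the log2 scale (adjusted p = 0.0192).

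**Figure D4:**
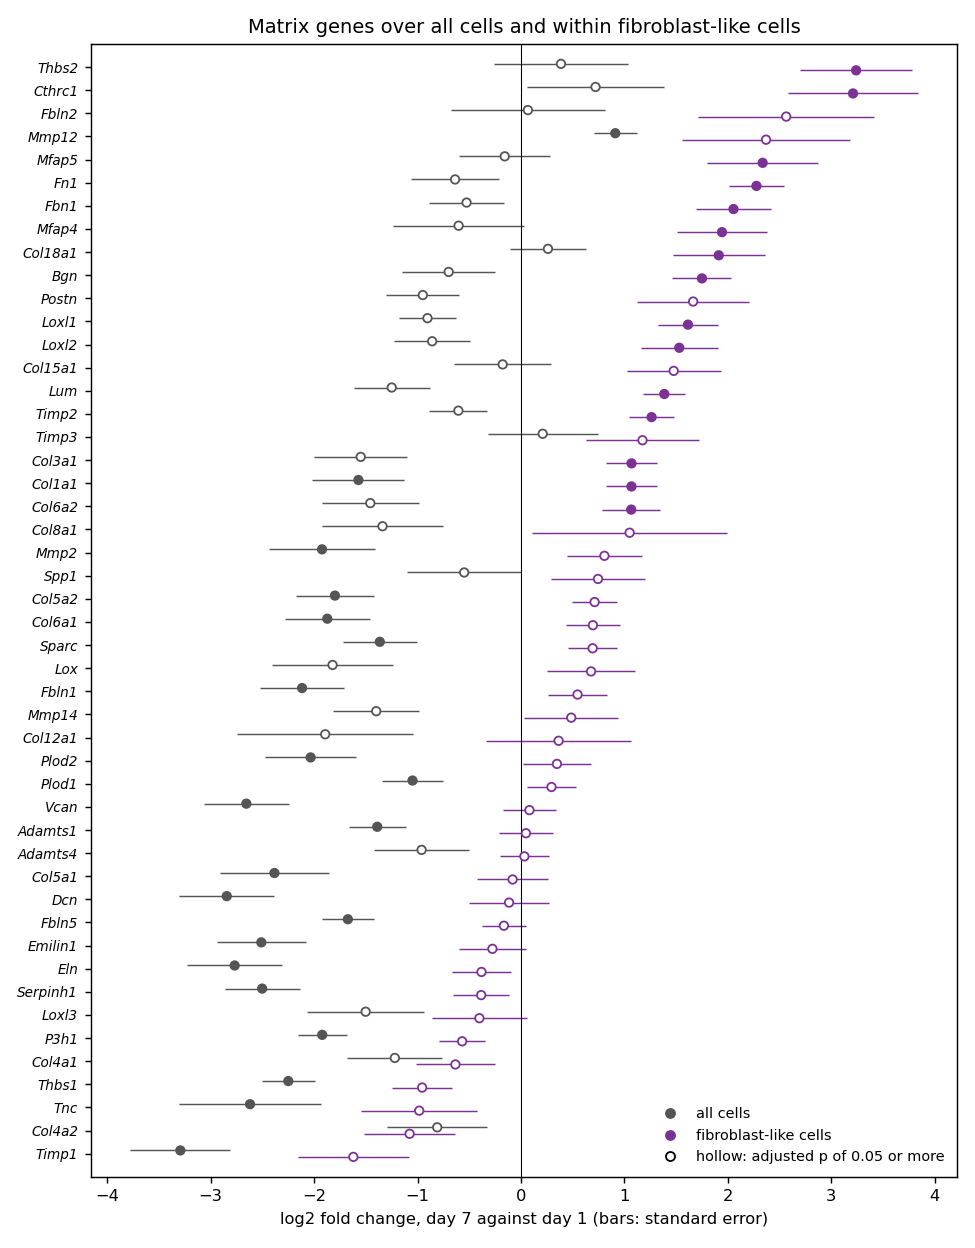
Log2 fold change of day 7 against day 1 (x axis, bars are standard errors) for each matrix gene tested in both (y axis), over all cells and within fibroblast-like cells; filled points had an adjusted p under 0.05. Fn1 was -0.64 over all cells and 2.28 within fibroblast-like cells, and Col1a1 was -1.57 and 1.07.

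Among the falls within fibroblast-like cells, Ptx3 had 1664, 556 and 3818 CPM at day 1 and 55.2, 274 and 133 CPM at day 7. Ptx3 fell by 3.84 ± 0.84 on the log2 scale (adjusted p = 0.0168). Mgp had 16495, 15845 and 51264 CPM at day 1 and 5372, 3264 and 3868 CPM at day 7. It fell by 2.91 ± 0.53 on the log2 scale (adjusted p = 0.00854). Glycolysis enzymes were lower for 6 of 11, nuclear-encoded respiratory chain genes for 7 of 16 and unfolded protein response genes for 5 of 14, with 1 of the unfolded protein response genes higher. Ldha, lactate dehydrogenase, had 1101, 529 and 841 CPM at day 1 and 332, 429 and 269.8 CPM at day 7. It fell by 1.37 ± 0.36 on the log2 scale (adjusted p = 0.0308). Ndufa4, a respiratory chain subunit, had 1323, 1124 and 1049 CPM at day 1 and 502, 447 and 449 CPM at day 7. It fell by 1.44 ± 0.21 on the log2 scale (adjusted p = 0.00475). Creld2, a chaperone gene of the stressed endoplasmic reticulum, had 211, 186 and 199 CPM at day 1 and 37.05, 45.6 and 75.2 CPM at day 7. It fell by 2.07 ± 0.26 on the log2 scale (adjusted p = 0.00293). Msln, a mesothelial marker, was among the largest rises. It rose by 5.55 ± 0.55 on the log2 scale (adjusted p = 0.00138). Different clusters made up the class at each day: clusters 5, 11 and 16 held 43.6%, 35.7% and 20.6% of it at day 1, and cluster 21, with Col3a1, Col1a1, Mfap5 and Cthrc1 among its leading genes, held 87.0% at day 7 and 0.153% at day 1. These percentages pool the libraries of a day. At day 1, cluster 11 held 897 of 932 cells in library 1, and cluster 5 held 2499 of 2917 in library 3. In library 2 of day 1, clusters 11 and 16 held 962 and 1032 of 2041. At day 7, cluster 21 held 380 of 440, 365 of 427 and 170 of 185 cells of the class. Summed markers of other cells were higher within it without overlap, among them NK&T markers, from 2.87 to 7.14 CPM to 54.8 to 347 CPM and macrophage markers, from 51.2 to 161 CPM to 763 to 1087 CPM. Mesothelial markers, which include Msln, went from 26.1 to 26.7 CPM to 182 to 332 CPM, dendritic markers from 23.7 to 44.2 CPM to 46.7 to 94.1 CPM and BEC markers from 61.4 to 103 CPM to 137 to 189 CPM. Of 19 T cell genes 17 were called higher in fibroblast-like cells and 6 once cells with high doublet scores were left out, while 24 interferon-stimulated genes were called in both cases. In the fits without 1 library Ptx3 kept the call in 4 of 6 and Ldha in 2 of 6. What part these cells had in the other rises was not tested.

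VSMC-like cells, the contractile cells of vessels and duct wall, came from 1 cluster at both days (346 cells at day 1 and 278 at day 7), and 4.36% of genes were higher and 3.01% lower. Class I genes rose for 13 of 13 members and interferon-stimulated genes for 16 of 18, and none fell. RT1-A1 had 128, 94.7 and 152 CPM at day 1 and 2227, 1248 and 2351 CPM at day 7. It rose by 3.89 ± 0.32 on the log2 scale (adjusted p = 2.06e-04). Ifi47, an interferon-induced GTPase, had 4.17, 3.83 and 2.46 CPM at day 1 and 164, 121 and 164 CPM at day 7. It rose by 5.36 ± 0.31 on the log2 scale (adjusted p = 4.32e-05). Cd74 rose less than in BEC-like cells in value, from 210, 89.9 and 114 CPM to 1196, 377 and 838 CPM (log2 fold change 2.49 ± 0.43, adjusted p = 0.0113), a difference that was not tested; it kept the call in 4 of 6 fits without 1 library. Flnc, a filamin of muscle cells, went from 80.7, 76.5 and 46.7 CPM to 12.4, 10.6 and 3.64 CPM. It fell by 2.72 ± 0.38 on the log2 scale (adjusted p = 0.00380). Fstl3, an activin-binding protein, went from 138, 117 and 139 CPM to 21.2, 33.2 and 7.29 CPM. It fell by 2.51 ± 0.38 on the log2 scale (adjusted p = 0.00595). Unfolded protein response genes were lower for 5 of 12 and higher for 1. None of the contractile genes on the list passed the test. Within the class, summed BEC markers were 54.2 to 334 CPM at day 1 and 545 to 1024 CPM at day 7. EC markers were 215 to 318 and 344 to 412 CPM, and dendritic markers 19.1 to 29.5 and 45.1 to 106 CPM. Fibroblast markers overlapped, at 1615 to 9091 CPM at day 1 and 3320 to 5277 CPM at day 7. The part of these cells in the calls was not tested.

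EC-like cells gave 3.28% of genes higher and 1.48% lower. Class I genes rose for 13 of 13 members, class II for 5 of 7 and interferon-stimulated genes for 20 of 24, with none lower. Cxcl9 had 53.4, 3.74 and 4.17 CPM at day 1 and 3429, 3333 and 4225 CPM at day 7 (log2 fold change 7.59 ± 0.89, adjusted p = 9.42e-04), with library 1 of day 1 above its companions as for Cxcl11 (43.8, 1.604 and 5.31 CPM at day 1 and 2843, 2401 and 1956 CPM at day 7). Vcam1, the adhesion molecule that holds lymphocytes on the vessel wall, had 42.7, 31.6 and 17.8 CPM at day 1 and 176, 185 and 117 CPM at day 7. It rose by 2.47 ± 0.34 on the log2 scale (adjusted p = 0.00251). Nos3, the endothelial nitric oxide synthase that responds to flow, had 245, 296 and 347 CPM at day 1 and 105, 114 and 114 CPM at day 7 (log2 fold change -1.36 ± 0.22, adjusted p = 0.00685) and kept the call in all 6 fits without 1 library. At a clustering resolution of 2, a cluster with Nos3 among its leading genes held 166, 336 and 530 EC-like cells at day 1 and 103, 129 and 56 at day 7. A cluster with Cxcl11 and Cxcl9 among its leading genes held 16, 6 and 21 cells at day 1 and 343, 274 and 313 at day 7. The part of this shift in the EC-like calls was not tested. Pfkfb3 had 26.4, 18.7 and 18.6 CPM at day 1 and 121, 127 and 171 CPM at day 7. It rose by 2.77 ± 0.24 on the log2 scale (adjusted p = 1.12e-04). C1s, an early complement protease, had 3.93, 10.7 and 9.11 CPM at day 1 and 156, 134 and 241 CPM at day 7. It rose by 4.49 ± 0.35 on the log2 scale (adjusted p = 5.97e-05). Thbs1, thrombospondin, had 7.305, 7.49 and 9.49 CPM at day 1 and 24.7, 40.5 and 30.9 CPM at day 7. It rose by 2.02 ± 0.30 on the log2 scale (adjusted p = 0.00403). Npw, a neuropeptide gene, went from 215, 355 and 229 CPM to 49.3, 50.4 and 17.7 CPM. It fell by 2.66 ± 0.40 on the log2 scale (adjusted p = 0.00402).

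Among the genes that passed the naming filters in EC-like cells, Lyve1, a hyaluronan receptor of lymphatic and sinusoidal endothelium, showed the largest fall. It had 125, 13.4 and 207 CPM at day 1 and 10.6, 5.33 and 3.63 CPM at day 7 (log2 fold change -4.04 ± 0.82, adjusted p = 0.0212). Cluster 39 held 8.34% of the EC-like cells of day 1 and none of day 7, and 88 of its 101 cells came from library 3 of day 1, which also had the highest Lyve1. Summed lymphatic EC markers, of which Lyve1 is itself a member, were 38.5 to 252 CPM at day 1 and 20.5 to 36.1 CPM at day 7, and their part in the fall was not tested. Lyve1 kept the call in 4 of 6 fits without 1 library. Of 13 T cell genes 9 were called higher in EC-like cells, 4 once empty-barcode RNA had been subtracted and 1 without cells of high doublet score. Summed NK&T markers in the class were 20.2 to 34.2 CPM at day 1 and 86.0 to 278 CPM at day 7, and dendritic markers 26.2 to 36.0 and 58.5 to 119 CPM. VSMC markers were 56.2 to 114 CPM at day 1 and 152 to 156 CPM at day 7, and the part of these cells in the other calls was not tested. With the library numbers as a block, the EC-like calls were 728 in place of 419.

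Lymphatic EC-like cells were few at day 7, with 72 cells in all and 21 to 27 per library, and 4.88% of genes were higher and 2.85% lower. With cells of high doublet score left out, 27, 15 and 4 of them remained in libraries 1, 2 and 3 of day 7. These were too few for the test, so the part of possible doublets in the calls below was not tested. Gbp5, a guanylate-binding protein induced by interferon, had 9.27, 17.4 and 7.63 CPM at day 1 and 218, 308 and 420.3 CPM at day 7. It rose by 4.67 ± 0.38 on the log2 scale (adjusted p = 1.28e-05). Cell cycle genes rose for 7 of 12 and fell for none (median 3.25), such as Mki67, a marker of dividing cells, at 3.27, 2.05 and 2.18 CPM at day 1 and 64.2, 36.7 and 53.1 CPM at day 7. Mki67 rose by 4.13 ± 0.47 on the log2 scale (adjusted p = 1.48e-04). Mt2A went from 4356, 2620 and 6624 CPM to 128, 433 and 691 CPM. It fell by 3.60 ± 0.51 on the log2 scale (adjusted p = 9.12e-04). Cd55, a membrane protector against complement, went from 168, 213 and 321 CPM to 17.8, 58.8 and 33.8 CPM. It fell by 2.90 ± 0.44 on the log2 scale (adjusted p = 0.00145). Fibroblast markers summed to 61.6 to 2141 CPM at day 1 and 46.4 to 12117 CPM at day 7 within the class. Marker lists whose sums were higher without overlap included NK&T markers (7.63 to 16.9 CPM at day 1 and 29.4 to 332 CPM at day 7), EC markers (1925 to 2406 and 2585 to 4860 CPM) and mesothelial markers (13.1 to 30.7 and 73.4 to 164 CPM). The others were those of cycling cells (11.3 to 61.0 and 348 to 510 CPM), platelets (21.5 to 28.3 and 33.8 to 58.7 CPM) and Schwann cells (1.02 to 2.18 and 3.57 to 14.7 CPM). The part of these cells in the changes was not tested.

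Within macrophage-like cells 5.58% of genes were higher and 3.83% lower (59.3% of the calls were higher, and 48.1% when scaled by library size only). RT1-Bb had 356, 99.1 and 359.5 CPM at day 1 and 5583, 4362 and 2731 CPM at day 7. It rose by 4.05 ± 0.55 on the log2 scale (adjusted p = 0.00231). Class II genes rose for 8 of 10 members, class I for 12 of 14 and interferon-stimulated genes for 18 of 24, and none fell. Resident macrophage genes were lower for 4 of 17 and higher for 2 (median -0.64), the rises being Axl, a receptor for the clearance of dying cells, and Apoe. Apoe, a lipid carrier of tissue macrophages, went from 1077, 1148 and 2973 CPM to 10454, 8814 and 4225 CPM. It rose by 2.29 ± 0.50 on the log2 scale (adjusted p = 0.0215). Apoe kept the call in 4 of 6 fits without 1 library. Cd163, the hemoglobin scavenger, had 208, 274 and 409.9 CPM at day 1 and 46.1, 25.7 and 27.1 CPM at day 7. It fell by 3.06 ± 0.36 on the log2 scale (adjusted p = 0.00117). Lyve1 had 175, 179 and 46.6 CPM at day 1 and 13.1, 8.19 and 5.47 CPM at day 7. It fell by 3.73 ± 0.52 on the log2 scale (adjusted p = 0.00276). Ltb4r, a receptor for leukotriene B4, had 76.95, 58.2 and 88.8 CPM at day 1 and 2.25, 0.455 and 0 CPM at day 7. It fell by 5.92 ± 0.63 on the log2 scale (adjusted p = 7.86e-04). Pdpn had 111, 148 and 85.02 CPM at day 1 and 3.89, 2.12 and 0.976 CPM at day 7. It fell by 5.34 ± 0.42 on the log2 scale (adjusted p = 4.70e-04). S100a8 had 6619, 7165 and 8903 CPM at day 1 and 80.5, 560.4 and 125 CPM at day 7. It fell by 4.75 ± 0.72 on the log2 scale (adjusted p = 0.00410). Ccr1, a receptor of recruited monocytes, had 111, 126 and 92.4 CPM at day 1 and 9.12, 10.8 and 11.1 CPM at day 7. It fell by 3.31 ± 0.20 on the log2 scale (adjusted p = 1.08e-04).

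Cell cycle genes rose for 10 of 23 in macrophage-like cells and fell for none (median 0.91), for instance Ccnb1, a mitotic cyclin, at 7.55, 7.19 and 6.402 CPM at day 1 and 18.2, 17.5 and 20.9 CPM at day 7. Ccnb1 rose by 1.49 ± 0.21 on the log2 scale (adjusted p = 0.00257). Nqo1, an NRF2 target, went from 42.8, 38.4 and 30.2 CPM to 9.67, 11.3 and 15.04 CPM (log2 fold change -1.57 ± 0.21, adjusted p = 0.00245), and of the 13 genes of that list 4 were lower and 1 higher. Vcan, versican, went from 1179, 1665 and 515 CPM to 81.2, 91.5 and 126 CPM. It fell by 3.40 ± 0.37 on the log2 scale (adjusted p = 8.81e-04). Cluster 8, led by Fcnb, Ccl24 and Vcan, held 59.9% of the class at day 1 and 0.636% at day 7. Cluster 29, with Mrc1, Cd163 and Lyve1, held 9.32% and 0.124%, and clusters 6, 9 and 15 held 34.1%, 33.8% and 17.2% at day 7. Neutrophil markers summed to 14046 to 17099 CPM in the class at day 1 and 165 to 2247 CPM at day 7, and their part in the falls was not tested. Dendritic markers went from 49.4 to 72.2 CPM to 158 to 264 CPM and B markers from 17.1 to 24.4 CPM to 40.1 to 131 CPM, beside the class II rises, and their part was not tested.

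**Figure D5:**
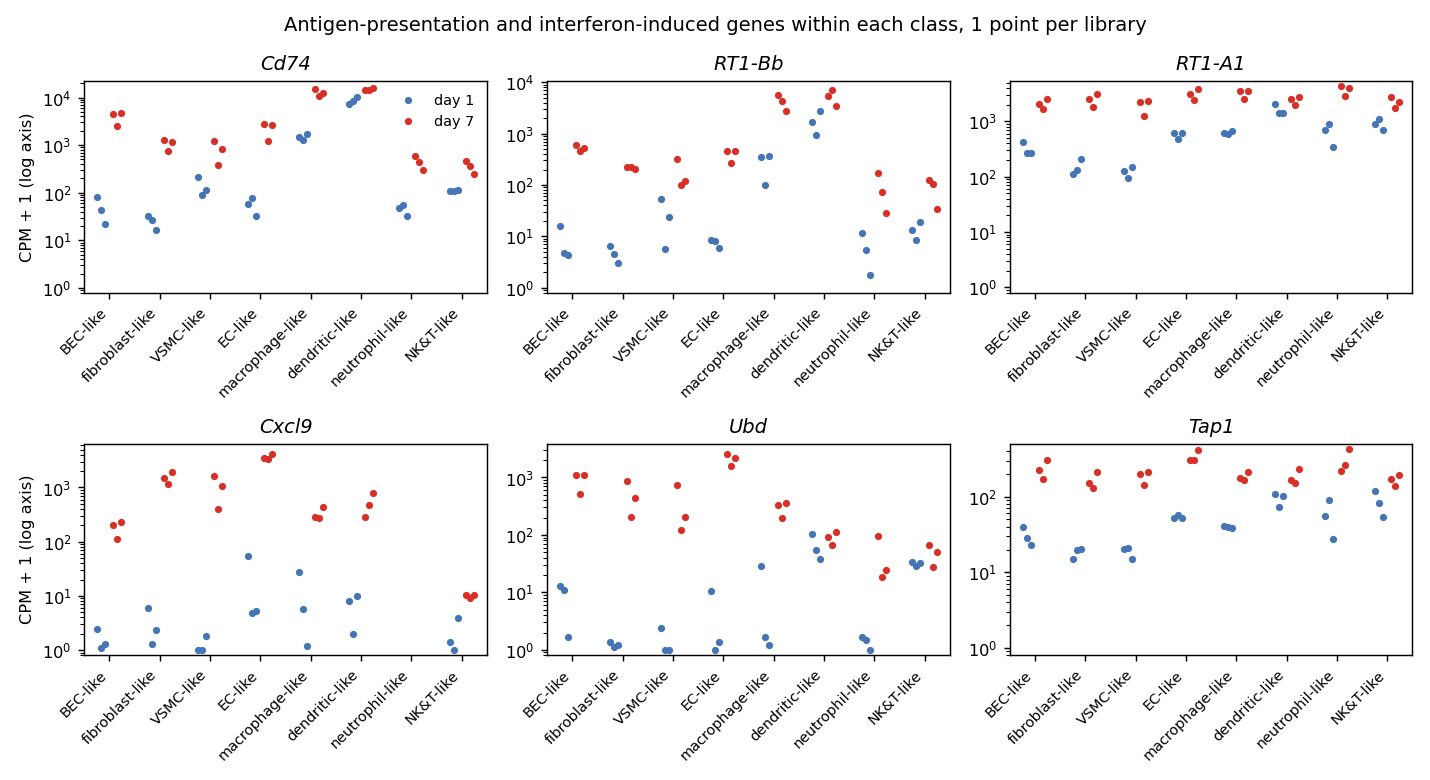
CPM + 1 per library (y axis, log scale) of 6 antigen-presentation and interferon-induced genes within 8 classes (x axis) at day 1 and day 7; each point is 1 library, and a class without points was not tested for that gene. Cd74 within BEC-like cells went from 79.7, 41.8 and 20.6 CPM to 4566, 2536 and 4654 CPM, and within dendritic-like cells, which present antigen at rest, from 7142, 8316 and 10358 CPM to 14324, 14274 and 15734 CPM.

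Dendritic-like cells showed 1.38% of genes higher and 2.87% lower. Cxcl9 had 7.05, 0.972 and 8.94 CPM at day 1 and 287, 472 and 806 CPM at day 7 (log2 fold change 6.55 ± 0.51, adjusted p = 6.26e-05), and class II genes were higher for 6 of 9. RT1-Da had 6201, 5365 and 7606 CPM at day 1 and 13766, 13657 and 13722 CPM at day 7. It rose by 1.24 ± 0.21 on the log2 scale (adjusted p = 0.00431). Macrophage markers within the class summed to 2246 to 2745 CPM at day 1 and 3346 to 3782 CPM at day 7, and their part was not tested. Class I genes rose for 1 of 13. Interferon-stimulated genes were higher for 5 of 20 and lower for 1, Isg15, an interferon-induced ubiquitin-like protein, which went from 1932, 1391 and 2061 CPM to 92.52, 338 and 674 CPM. Isg15 fell by 2.20 ± 0.49 on the log2 scale (adjusted p = 0.0203). Aldh1a2, which makes retinoic acid, had 90.9, 35.01 and 163 CPM at day 1 and 3.08, 2.38 and 11.1 CPM at day 7. It fell by 4.21 ± 0.61 on the log2 scale (adjusted p = 0.00181). Il7r, the IL-7 receptor, had 249.8, 200.3 and 142 CPM at day 1 and 21.3, 17.2 and 24.7 CPM at day 7. It fell by 3.09 ± 0.28 on the log2 scale (adjusted p = 1.41e-04). Ccr7, the receptor for migration to lymph nodes, had 21.7, 30.1 and 64.8 CPM at day 1 and 1.96, 4.75 and 12.8 CPM at day 7. It fell by 2.64 ± 0.59 on the log2 scale (adjusted p = 0.0206). Cluster 25, led by Il7r and Isg15, held 448 of the 882 dendritic-like cells of day 1 and 38 of the 873 of day 7, and cluster 20 held 30.4% and 78.7%. Isg15 and Ccr7 kept the call in 3 of 6 fits without 1 library.

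Neutrophil-like cells formed 1 cluster at the main resolution (2818 cells at day 1 and 927 at day 7), with 2.07% of genes higher and 0.779% lower. At a clustering resolution of 2 they split. A cluster with Retnlg and Mmp8 among its leading genes held 711, 602 and 246 cells at day 1 and 16, 5 and 31 at day 7. A cluster with G0s2 and Ifit3 held 277, 541 and 441 cells at day 1 and 208, 561 and 107 at day 7. The part of this shift in the changes below was not tested. Interferon-stimulated genes rose for 9 of 20, class I for 9 of 13 and class II for 5 of 7, and none fell. Rtp4, an interferon-induced gene, had 16.7, 3.84 and 0.786 CPM at day 1 and 76.6, 487 and 592 CPM at day 7. It rose by 5.39 ± 0.88 on the log2 scale (adjusted p = 0.00392). Gbp2, a guanylate-binding protein, had 85.7, 149.6 and 23.6 CPM at day 1 and 726, 551 and 1904 CPM at day 7. It rose by 3.50 ± 0.61 on the log2 scale (adjusted p = 0.00590). Alpl, tissue-nonspecific alkaline phosphatase, a gene of mature neutrophils, went from 201, 70.02 and 169.8 CPM to 0, 5.32 and 15.5 CPM. It fell by 4.76 ± 0.73 on the log2 scale (adjusted p = 0.00263). Cxcl3 went from 610.4, 136 and 149 CPM to 36.6, 26.6 and 38.7 CPM. It fell by 3.48 ± 0.65 on the log2 scale (adjusted p = 0.00832). Lcn2, an iron-sequestering granule protein, had 243, 195 and 6395 CPM at day 1 and 13.3, 71.9 and 116 CPM at day 7, of which library 3 of day 1 stood far above all others (log2 fold change -5.25 ± 1.21, adjusted p = 0.0327), and it kept the call in 3 of 6 fits without 1 library. Macrophage markers summed to 3779 to 15912 CPM at day 1 and 17325 to 21947 CPM at day 7 within the class, and their part was not tested.

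NK&T-like cells held few called genes beside their shift in share: 0.186% of genes were higher and 0.174% lower, 31 genes in all, and DESeq2 gave 135. Nkg7, a cytotoxic granule gene, had 894, 558 and 681 CPM at day 1 and 1781, 3382 and 2201 CPM at day 7. It rose by 1.89 ± 0.34 on the log2 scale (adjusted p = 0.0474). Ahr, the aryl hydrocarbon receptor, had 31.5, 74.8 and 45.4 CPM at day 1 and 8.96, 4.79 and 14.4 CPM at day 7. It fell by 2.33 ± 0.42 on the log2 scale (adjusted p = 0.0474). Both kept the call in 2 of 6 fits without 1 library. Of 24 T cell and cytotoxic genes 1 was called higher within the class (median 0.80), with 14 at an unadjusted p under 0.05 and 8 calls in DESeq2, and 23 of 25 were higher over all cells. Summed NK&T markers within the class did not overlap, at 3444 to 4815 CPM at day 1 and 8543 to 10261 CPM at day 7. Cluster 12, led by Gzma and Ccl5, held 8 of the 1169 NK&T-like cells of day 1 and 1830 of the 6838 of day 7. Dcn, a fibroblast transcript, was called lower within the class (log2 fold change -3.25 ± 0.43, adjusted p = 0.0145), where fibroblast markers summed to 217 to 389 CPM at day 1 and 43.2 to 88.6 CPM at day 7. With cells of high doublet score left out, or with the RNA of empty barcodes subtracted, 10 genes had an adjusted p under 0.05. Over all cells of the class the number called was 196 without library 1, 2 without library 2 and 0 without library 3 of day 1, and 12 without library 2 of day 7.

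B-like cells gave 0.127% of genes higher and 0.255% lower, 15 genes in all and 23 with the library numbers as a block. RT1-A1 had 979, 740.4 and 508 CPM at day 1 and 2195, 1582 and 2137 CPM at day 7. It rose by 1.54 ± 0.29 on the log2 scale (adjusted p = 0.0262). It kept the call in 2 of 6 fits without 1 library. The falls included transcripts that mark other cells, such as S100a8, from 126, 113 and 59.4 CPM to 3.47, 36.1 and 5.39 CPM. S100a8 fell by 3.88 ± 0.62 on the log2 scale (adjusted p = 0.0103). Reg3g, an antimicrobial lectin of epithelium, went from 119.6, 567 and 734 CPM to 19.4, 28.9 and 21.1 CPM. It fell by 4.43 ± 0.59 on the log2 scale (adjusted p = 0.00155). Mast-like cells were tested with 3 libraries of day 1 and 2 of day 7, since library 3 of day 7 held 12 of them, under the minimum of 20. They gave 0 calls of 1818 genes tested in edgeR, for 0% higher and 0% lower, with 127 genes at an unadjusted p under 0.05 and 18 calls in DESeq2.

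An epithelial cluster led by Rgs13 and Ltc4s had 8 of 9 tuft cell markers detected. Its leading genes also included Krt18, Krt8 and Epcam of the BEC marker list, and the naming rule left it unnamed for that reason. Tuft cells are chemosensory epithelial cells that make leukotrienes and cytokines. The cluster took 2.08%, 2.64% and 1.30% of cells at day 1 and 2.73%, 0.0480% and 3.83% at day 7, and library 2 of day 7, with 4 cells, was left out of its test. Tuft markers summed to 3606 to 4049 CPM at day 1 and 3939 to 4465 CPM at day 7. Of its genes 0.753% were higher and 0.355% lower. B2m, the light chain of class I molecules, had 1789, 1582 and 1572 CPM at day 1 and 8114 and 9290 CPM at day 7 (log2 fold change 2.41 ± 0.25, adjusted p = 8.27e-05), and class I genes rose for 7 of 13. Reg3g had 5851, 2824 and 3231 CPM at day 1 and 459.5 and 419 CPM at day 7. It fell by 3.16 ± 0.37 on the log2 scale (adjusted p = 1.95e-04). Reg3b, its relative, had 1951, 2055 and 1371 CPM at day 1 and 126 and 10.6 CPM at day 7. It fell by 4.62 ± 0.67 on the log2 scale (adjusted p = 0.00125). None of the tuft cell genes and none of 19 selenoprotein genes passed the test in this cluster. All 8 T cell genes tested were called higher and 1 of them without cells of high doublet score, and NK&T markers summed to 25.9 to 35.8 CPM at day 1 and 272 to 979 CPM at day 7. Collagens and matrix genes were lower for 7 of 12 and neutrophil granule and receptor genes for 3 of 10. Fibroblast markers summed to 402 to 517 CPM at day 1 and 75.4 to 91.9 CPM at day 7. Neutrophil markers went from 2668 to 9546 CPM to 136 to 578 CPM. The part of RNA from other cells in the calls of this cluster was not tested.

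The change from day 1 to day 7 was also set beside that of transplants without arterial ligation. Of 15488 genes tested for a difference of the change between arms, 0 were called (0%), with 2811 at an unadjusted p under 0.05 in edgeR and 1207 calls in DESeq2. Genes were to be named here by the size of a called difference, and none was called. The genes below were picked outside that rule and are examples, which do not stand for all genes. The raised-flow changes below are those of the fit to the raised-flow arm alone. The transplant changes and the differences came from a joint fit of both arms, so the differences are not exact subtractions of the printed changes. Cxcl9 had a log2 fold change of 6.91 in raised-flow grafts and 6.27 in transplants (difference 0.68, adjusted p = 0.870). Crem had 1.33 and 1.79 (difference -0.42, adjusted p = 0.713). Mgp had -4.87 and -0.74 (difference -4.09, adjusted p = 0.120). Pdpn had -3.47 and -0.18 (difference -3.26, adjusted p = 0.117). Scarf2, a scavenger receptor relative, had -3.46 and 0.58 (difference -4.01, adjusted p = 0.112). Dcn had -2.85 and -0.32 (difference -2.49, adjusted p = 0.124). None of these differences passed the test, which does not show that the arms changed alike. Without library 1 of transplant day 1 the number of called differences was 657, without library 3 of transplant day 7 it was 159, and without library 1 of raised-flow day 1 it was 4.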

How the data were processed

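Libraries of 10x 3' single-cell RNA-seq from rat extrahepatic bile duct were read as the UMI counts per gene and barcode that the authors deposited. The submitters' processing notes name Cell Ranger 5.0.1 and Seurat 3.2.0, while the matrix headers name Cell Ranger 4, and the genome build was not given in the sources used here. Raised flow day 3 library 1 was not analysed here. A barcode counted as a cell when over 400 and below 6000 genes were seen, with mitochondrial UMIs below 25% and hemoglobin UMIs below 3% of its total.

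Cells were clustered (scanpy 1.11.5, leidenalg 0.10.2, 2000 variable genes, 30 principal components, 20 neighbours, resolution 0.9) with 433 genes of the tested lists left out, which gave 41 clusters. List genes that were also cell type markers, such as Col1a1 and Nkg7, were not among those left out. Tests of such genes within a class are therefore not independent of how the class was defined. Clusters were named by marker genes; the rule for conflicting markers was settled after the leading genes had been seen. No doublets were removed, and an alternative left out 3790 barcodes by doublet score, the highest in each library. Barcodes with at most 100 UMIs served as empty barcodes. Percentages of a class held by a cluster were taken over the pooled cells of the 3 libraries of a day.

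Counts were summed per library, over all cells and per class (at least 20 cells in a library), and tested with edgeR 4.0.16 (R 4.3.3; TMM scaling, quasi-likelihood test, Benjamini-Hochberg adjustment, threshold 0.05). DESeq2 1.42.0 was an alternative, as were other scaling, no filter on low counts, and fits without 1 library. The estimate of empty-barcode RNA and the edgeR and DESeq2 fits were tested on simulated data. In simulated sums over all cells, edgeR recovered 7 of 100 2-fold and 66 of 100 4-fold changes, and 6.41% of its calls were false. DESeq2 recovered 37 and 84, with 27.5% of its calls false. For BEC-like cells these values were 10, 81 and 6.19% in edgeR and 31, 87 and 20.3% in DESeq2. Only 100 genes of each size were changed per simulation, of 15054 over all cells, where 17.4% were called in the data. Recovered and false shares depend on how many genes change, so these rates may not carry over to the data. Depth per library was 38304154 to 84919892 UMIs in cells, and the shares carry counting error besides the spread between libraries.

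The genes named over all cells were the 12 largest rises and 12 largest falls with an adjusted p under 0.05, no overlap between days and at least 50 CPM, and up to 4 members of each list; within a class they were the 4 largest in each direction and list members. Genes without a symbol of their own, and hemoglobin, mitochondrial and immunoglobulin segment genes, were left out of these largest changes. Within a class, so were genes whose mean CPM in the higher group lay below that in empty barcodes of the same libraries. Crem, Vim, Cdh1, Cdh2, Krt7 and Krt19 were always considered. Genes were described from these, not all of them. The comparison, its lists and rules were chosen with earlier results of these data known. Deviations from the day means of libraries with the same number correlated at 0.320, 0.145 and 0.209, and those of other pairs at -0.220 to 0.059. No label says that libraries of the same number belong together. The pairing was inferred from these same data, so they cannot serve as a test of it. A fit with the number as a block was run beside the unblocked one, and the blocked and paired results rest on that inference.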

Additional observations from a re-analysis of the deposited data

How the results depend on the processing

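Over all cells the number of genes called was 790 to 2152 in the fits without 1 library, against 2625. The replicate block gave 3230 calls in the sums of all cells, 430 for BEC-like cells, 728 in EC-like cells and 23 in B-like cells. Only the EC-like and B-like counts moved by more than 1.5 times. The block moved the median of the TGF-beta list to -0.52. Scaling by library size only moved the median of all genes from 0.01 to 0.15 and the share of higher calls from 48.1% to 56.0%, the respiratory chain list to -0.30, and the calls to 557 in BEC-like and 55 in NK&T-like cells.

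Without a filter on low counts the calls were 80 in B-like, 1045 in BEC-like, 952 in EC-like, 297 in NK&T-like, 220 in Rgs13 and Ltc4s cluster, 1107 in VSMC-like, 643 in dendritic-like, 855 in lymphatic EC-like, 90 in mast-like and 344 in neutrophil-like cells. DESeq2 gave 1737 in BEC-like, 135 in NK&T-like, 18 in mast-like and 197 in neutrophil-like cells and 1207 between arms. With high doublet scores left out, 10 were called in NK&T-like cells and 35 in the Rgs13 and Ltc4s cluster, where S100a9 turned to a log2 fold change of 0.55; with empty-barcode RNA subtracted, NK&T-like cells gave 10. A minimum of 50 cells gave 230 in VSMC-like cells. At resolution 2 BEC-like cells gave 652, and the unnamed share differed by 2.91 points. BEC-like cells without cluster 18, 2 or 4 gave 2097, 1312 and 101. The cause of these changes was not tested.

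In the fits without 1 library the calls ranged from 8 to 33 in B-like, 36 to 1291 in BEC-like, 184 to 400 in EC-like, 0 to 196 in NK&T-like, 87 to 471 in VSMC-like, 167 to 435 in dendritic-like, 924 to 2056 in fibroblast-like, 175 to 493 in lymphatic EC-like, 550 to 783 in macrophage-like, 0 to 1 in mast-like and 56 to 171 in neutrophil-like cells, and 0 to 657 between arms. Counts moved by more than 1.5 times without library 2 of day 1 in EC-like (222), VSMC-like (87), B-like (8) and macrophage-like cells (571), without library 3 of day 1 in EC-like (245), VSMC-like (177), B-like (8) and lymphatic EC-like cells (246), without library 1 of day 1 in B-like (26), dendritic-like (167), lymphatic EC-like (230) and macrophage-like cells (550), without library 1 of day 7 in EC-like (184), VSMC-like (108), fibroblast-like (924), B-like (33) and lymphatic EC-like cells (218), without library 2 of day 7 in fibroblast-like (1464), dendritic-like (181) and neutrophil-like cells (56), and without library 3 of day 7 in EC-like (191), VSMC-like (230), fibroblast-like (965), lymphatic EC-like (175) and macrophage-like cells (578). List medians in these fits ranged from -0.49 to 0.42 (IL-1, IL-6 and TNF), 3.18 to 4.38 (class II), 3.04 to 3.99 (T cells), -0.90 to -0.14 (TGF-beta), 0.04 to 0.65 (complement), -0.67 to -0.25 (glycolysis), 1.73 to 2.63 (interferon), -2.17 to -1.08 (neutrophil granule), -0.87 to 0.20 (neutrophil chemokines) and -0.59 to -0.32 (respiratory chain). Not run for want of libraries or cells were the Rgs13 and Ltc4s cluster with the block or without library 1 of day 7, lymphatic EC-like cells with the doublet or 50-cell limits, and several for mast-like cells.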
